A study of Homo sapiens with 21 samples.

Results

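Small nucleolar RNA (snoRNA) host genes and abundant long noncoding RNAs were followed across 21 RNA-seq libraries made from K562 cells, a long-established line of human chronic myeloid leukaemia with erythroid features. The set holds 35 genes, out of 61541 genes in the gene count table and 57300 gene names in the exon-bin files. The set was given by symbol, but it was chosen with earlier results of these data known. It comprises 26 snoRNA hosts (SNHG1, SNHG3 to SNHG12, SNHG14 to SNHG22, SNHG25, SNHG26, GAS5, ZFAS1, EPB41L4A-AS1 and DANCR) and 9 other long noncoding RNAs (MALAT1, NEAT1, CYTOR, MIR4435-2HG, OIP5-AS1, TUG1, NORAD, PVT1 and MIR17HG). All 35 symbols were matched to a gene ID in both kinds of file.

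The labels place the libraries in 7 groups of 3. In the first pair of groups the enhancer RNA called 34kn was overexpressed and set against libraries labelled as its control. In the second pair the enhancer RNA called 34kp was overexpressed and set against its own control. Both RNAs come from an enhancer 34 kb upstream of MYB. In the third experiment K562 cells are labelled as overexpressing either MYB or NMYB, and both groups were set against an empty vector. The design text speaks of an isoform of MYB that lacks its N terminus, but no source used here says in words what NMYB stands for. All groups share the K562 background and culture in RPMI medium with 10% fetal bovine serum. The promoter, the vector and the number of clones behind each overexpression were not given in the sources at hand. The eRNA experiments were deposited as counts over exon bins, non-overlapping pieces of a gene's exons, and the MYB experiment as counts per gene.

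snoRNAs guide the methylation and pseudouridylation of ribosomal and spliceosomal RNA, and in humans most are cut out of introns of host genes. Many noncoding hosts belong to the class of RNAs that start with a run of pyrimidines, like ribosomal protein mRNAs, and their spliced RNAs are commonly degraded during translation by nonsense-mediated decay. Among the other long noncoding RNAs, MALAT1 is a nuclear RNA of splicing speckles, NEAT1 is the scaffold of paraspeckles, and NORAD is a cytoplasmic RNA known for its part in genome stability. MYB is a transcription factor of blood progenitors whose level falls as erythroid cells mature.

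The sequences around the transcription starts show what many hosts share and the other noncoding RNAs mostly lack. In the RefSeq start regions of GRCh38.p14, 29 of the 35 genes had an entry, with 30 regions in all. A run of at least 6 pyrimidines that touched the 10 bases either side of the start was present in 14 of 22 hosts (63.6%). It was present in 2 of 8 regions of the other noncoding genes (25%) and in 31.1% of all 35116 RefSeq start regions. Runs were counted at full length and could extend beyond these bases, as in SNHG7 and SNHG26. The lines below give 10 bases before the start and 30 from it, 5′ to 3′ on the gene's strand, with the longest such pyrimidine run in capitals whatever its length. The hosts shown first are examples with a run of 6 or more whose levels differed in the MYB experiment or that are among the most abundant. Not every such host is shown. SNHG3, SNHG7 and SNHG26 have a run too, while GAS5 (longest run 3), DANCR (5) and SNHG10 (4) lack a run of 6 at the RefSeq start used. For GAS5, on the - strand, this start is chr1:173869045, upstream of the GENCODE 29 start at 173868882. Bases around the GENCODE 29 start were not searched, so the GAS5 value holds for the RefSeq start only. The last 3 genes shown lack a run of 6 as well.
SNHG8 (chr4:118278752-118278791, + strand): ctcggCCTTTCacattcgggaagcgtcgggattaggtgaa
SNHG12 (chr1:28581844-28581883, - strand): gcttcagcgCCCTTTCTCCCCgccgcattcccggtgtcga
SNHG17 (chr20:38435299-38435338, - strand): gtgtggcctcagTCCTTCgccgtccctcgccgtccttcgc
SNHG19 (chr16:2155329-2155368, - strand): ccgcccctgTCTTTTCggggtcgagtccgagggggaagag
ZFAS1 (chr20:49278632-49278671, + strand): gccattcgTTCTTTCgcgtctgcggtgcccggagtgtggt
SNHG1 (chr11:62855856-62855895, - strand): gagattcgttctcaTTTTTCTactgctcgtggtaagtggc
EPB41L4A-AS1 (chr5:112160516-112160555, + strand): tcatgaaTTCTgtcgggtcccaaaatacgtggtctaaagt
NORAD (chr20:36050931-36050970, - strand): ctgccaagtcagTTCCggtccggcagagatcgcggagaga
TUG1 (chr22:30969255-30969294, + strand): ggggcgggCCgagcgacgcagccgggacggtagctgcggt
In SNHG12 the run covers 12 bases, and in SNHG19 and ZFAS1 it covers 7. Over the whole RefSeq window, from 250 bases before each start to 50 after it and on both strands, the E-box CACGTG was present in 4 of 30 regions (13.3%), against 7.26% of all regions, with 4.55% of the 22 host regions and 37.5% of the 8 other regions. CAACNG or TAACNG, the core that MYB proteins bind, was present in 11 of 30 regions (36.7%), against 46.2% of all regions, with 22.7% of host regions and 75% of the other regions. These matches describe letters in a window only.

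The libraries of the gene table held 16552237 to 24462819 counts, and those of the bin files 36563252 to 41243796. In each of the 21 pairs of replicates the counts differed beyond sampling noise. Whether replicates came from separate cultures is not stated, so the p-values rest on a spread between samples that may be technical. MYB itself was not higher in the libraries labelled MYB (log2 fold change 0.08, SE 0.04, adjusted p = 0.23) or NMYB (-0.03, SE 0.04, adjusted p = 0.727), so these groups are called the libraries labelled MYB and NMYB. The 9 erythroid markers of K562 were all above 1 CPM (counts scaled to library size after TMM normalization) in the gene table. Their summed level was 1840 to 1890 CPM in the libraries labelled MYB and 1890 to 1900 CPM in the libraries labelled NMYB, against 2080 to 2120 CPM with empty vector. The mitochondrial share of counts was 5.94% to 6.21% in the libraries labelled MYB and 5.62% to 6.25% in the libraries labelled NMYB, against 6.63% to 7.17% with empty vector. The 3 monocytic markers, 1 of them above 1 CPM, summed to 31.9 to 36.9 CPM in the libraries labelled MYB and 35.9 to 39.2 CPM in the libraries labelled NMYB, against 23.6 to 28.5 CPM with empty vector. The 4 fibroblast markers, 1 of them above 1 CPM, summed to 1.79 to 2.45 CPM and 1.97 to 2.19 CPM, against 4 to 5.03 CPM with empty vector, and in the bin files to 14.0 to 17.9 CPM in 34kp libraries, against 22.7 to 25.0 CPM in their controls. The part of these differences in the results below was not tested. MS4A1, a B cell gene, was at 0 in every group.

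Per kilobase of exonic sequence in GENCODE 29, MALAT1 was the highest of the set with empty vector, at 222.6 ± 25.0 CPM per kb (SD, n = 3). SNHG3 followed at 119.5 ± 5.37, then GAS5 at 98.0 ± 3.62 and SNHG1 at 96.9 ± 2.68 CPM per kb. GAS5 and SNHG1 did not differ beyond their spread. NORAD stood at 80.5 ± 2.53 and DANCR at 69.5 ± 1.90 CPM per kb. The median of the 35 genes was 13.4 CPM per kb, against 0.447 CPM per kb over 28812 genes with a count and a length. At the low end, SNHG18 had 1 count in the 9 gene-table libraries together, SNHG22 had 0 to 3 counts per library and SNHG25 had 1 to 10, and these 3 genes did not pass the filter on low counts. SNHG14, the long host of the SNORD115 and SNORD116 clusters, had 2 to 14 counts per library. As a share of all gene counts, the 35 genes made up 0.511% to 0.540% in libraries labelled MYB and 0.473% to 0.536% in libraries labelled NMYB, against 0.546% to 0.591% with empty vector. MALAT1, not called in either comparison, alone made up 0.116% to 0.148% and 0.105% to 0.154%, against 0.169% to 0.207% with empty vector.

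**Figure D1:**
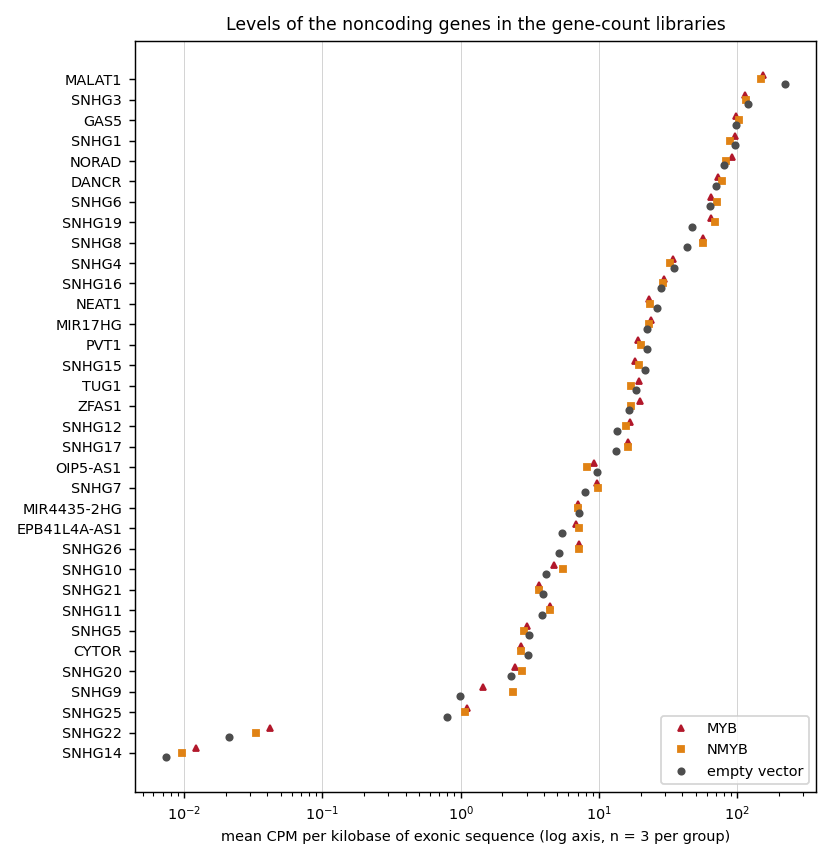
Mean level of each gene (CPM per kilobase of exonic sequence, log axis, n = 3 per group) in MYB, NMYB and empty-vector libraries, ordered by the empty-vector level. The genes span from below 0.01 to above 100 CPM per kb, SNHG18 is left out because groups are at 0, and the 3 groups lie close together for most genes.

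SNHG5 shows how far the value of an overlapping locus depends on the counting. In the gene table it had 7.93 to 9.28 CPM in libraries labelled MYB and 7.38 to 9.27 CPM in libraries labelled NMYB, against 7.41 to 10.0 CPM with empty vector. In the bin files its name is joined with SYNCRIP, SNX14 and other genes, and the joined name had 784 to 854 CPM in 34kp libraries. Of the 35 genes, 10 are joined in the bin files with another longer gene, 21 with small RNA genes only, and 4 (SNHG18, SNHG26, GAS5 and NORAD) stand alone. The 10 are SNHG3 (with RCC1), SNHG4 (with MATR3), SNHG5, SNHG14 (with SNRPN and SNURF), SNHG20 (with SEC14L1), SNHG21 (with a gene without a symbol), DANCR (with LINC01618 and RASL11B), CYTOR (with PLGLB2 and others), MIR4435-2HG (with ANAPC1) and OIP5-AS1 (with NUSAP1). Their bin values are those of the joined name, not of the noncoding gene alone. CYTOR and MIR4435-2HG are near-identical copies, so reads that fit both cannot be told apart. Without a stated strand setting, the same holds for SNHG10 with GLRX5, GAS5 with ZBTB37, ZFAS1 with ZNFX1 and SNHG12 with TRNAU1AP, which overlap on opposite strands.

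In the libraries labelled MYB, snoRNA hosts were more often higher than lower than with empty vector, and the changes were small. Of the 35 genes, 32 passed the filter on low counts, and 12 of these (37.5%) passed the test (edgeR quasi-likelihood, Benjamini-Hochberg adjusted p below 0.05 over all genes), against 22.3% of all 15823 genes tested. Among the 23 hosts tested, 8 rose and 1 fell (SNHG15). Among the 9 other noncoding RNAs, 1 rose (NORAD) and 2 fell (NEAT1 and PVT1). Over all genes, 9.62% were called higher and 12.7% lower. The median log2 fold change was 0.19 over the hosts and -0.05 over the other noncoding RNAs, against 0.01 over all genes tested.

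In the libraries labelled NMYB 13 of the 32 genes (40.6%) passed the same test, against 24.9% of all genes. Here 11 of the 23 hosts rose and 0 fell, and the other noncoding RNAs had 0 higher and 2 lower (NEAT1 and OIP5-AS1). With no filter on low counts, 16 of the noncoding genes were called, 9 higher and 7 lower, and 2 of the 13 calls (DANCR and SNHG6) were lost. Over all genes, 12.6% were called higher and 12.4% lower. The median log2 fold change was 0.20 over the hosts and -0.14 over the other noncoding RNAs, against 0.01 over all genes tested. The 3 empty-vector libraries serve both comparisons, so the values are given side by side and are not independent. Groups did not overlap in 17 of the 32 genes in each comparison, against 40.5% of all genes for MYB and 38.9% for NMYB. In both, SNHG7, SNHG8, SNHG12, SNHG17, SNHG19, SNHG26 and EPB41L4A-AS1 rose and NEAT1 fell.

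**Figure D2:**
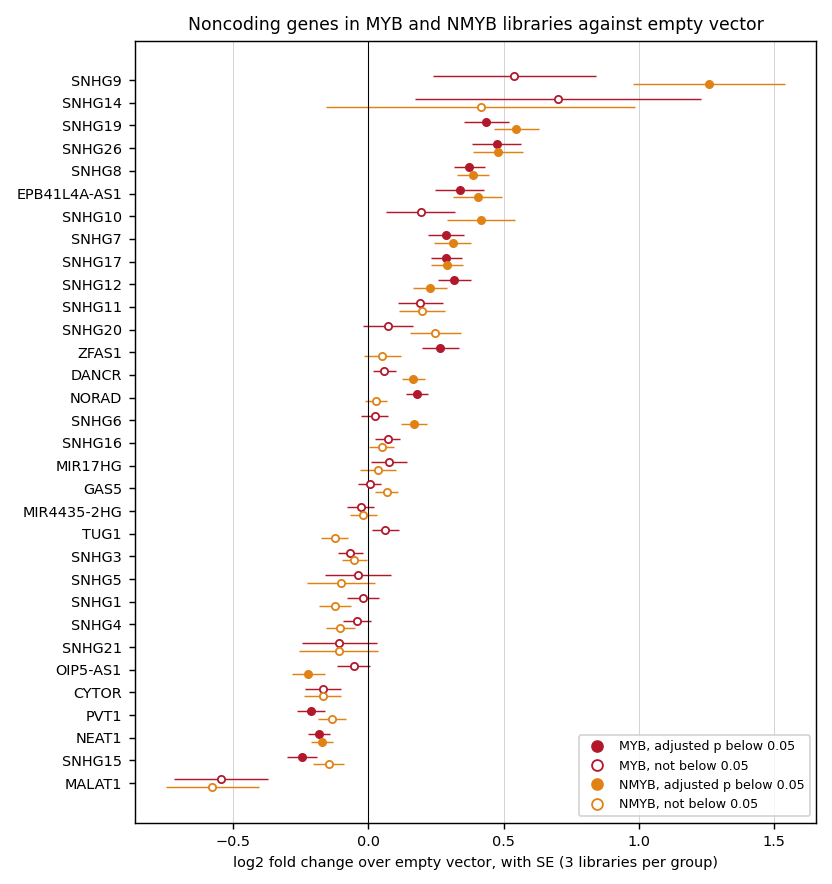
Log2 fold change over empty vector with its SE for the 32 genes tested, in MYB (red) and NMYB (orange) libraries, ordered by the sum of both values. Filled points have an adjusted p below 0.05, most of them are snoRNA hosts right of 0, and MALAT1 at the bottom is open because its SE of 0.17 is wide.

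SNHG8, a short host that carries the H/ACA snoRNA SNORA24, had the smallest adjusted p of the set. Its level was 50.1, 51.6 and 54.4 CPM in the libraries labelled MYB and 52.1, 53.5 and 51.8 CPM in the libraries labelled NMYB, against 38.5, 41.5 and 40.5 CPM with empty vector. Every library labelled MYB or NMYB was above every empty-vector library. Its log2 fold change was 0.37 (SE 0.06, adjusted p = 9.14e-05) in libraries labelled MYB, a fold of 1.30, and 0.39 (SE 0.06, adjusted p = 7.57e-05) in libraries labelled NMYB.

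SNHG19, whose exonic sequence is the second shortest of the set, had 22.1, 21.4 and 22.2 CPM in the libraries labelled MYB and 22.4, 26.5 and 22.3 CPM in the libraries labelled NMYB, against 15.8, 15.2 and 17.6 CPM with empty vector. The groups did not overlap. Its log2 fold change was 0.44 (SE 0.08, adjusted p = 0.00086) in libraries labelled MYB and 0.55 (SE 0.08, adjusted p = 0.000108) in libraries labelled NMYB. SNHG26 had 19.0, 17.9 and 19.8 CPM in the libraries labelled MYB and 18.6, 17.8 and 20.4 CPM in the libraries labelled NMYB, against 15.36, 12.03 and 13.28 CPM with empty vector. Again no empty-vector library reached a library labelled MYB or NMYB. Its log2 fold change was 0.47 (SE 0.09, adjusted p = 0.000883) in libraries labelled MYB and 0.48 (SE 0.09, adjusted p = 0.000873) in libraries labelled NMYB.

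SNHG12 and SNHG17 each host several H/ACA snoRNAs. SNHG12 had 69.7, 72.8 and 70.9 CPM in the libraries labelled MYB and 67.0, 64.7 and 68.7 CPM in the libraries labelled NMYB, against 51.4, 61.1 and 58.9 CPM with empty vector. It rose by 0.32 (SE 0.06, adjusted p = 0.000855) in libraries labelled MYB and by 0.23 (SE 0.06, adjusted p = 0.0106) in libraries labelled NMYB on the log2 scale. SNHG17 had 66.5, 68.7 and 66.9 CPM in the libraries labelled MYB and 65.2, 73.3 and 64.1 CPM in the libraries labelled NMYB, against 55.3, 56.2 and 53.9 CPM with empty vector. Its log2 fold change was 0.29 (SE 0.06) in both comparisons, with an adjusted p of 0.00121 in libraries labelled MYB and 0.00112 in libraries labelled NMYB. For both genes the empty-vector libraries were the lowest of all 9. Without empty-vector library 1, the lowest for SNHG12, its call in libraries labelled NMYB was lost (adjusted p = 0.0843).

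SNHG7 had 40.2 to 43.3 CPM in the libraries labelled MYB and 40.0 to 47.3 CPM in the libraries labelled NMYB, against 33.1 to 35.2 CPM with empty vector. It rose by 0.29 (SE 0.07, adjusted p = 0.00458) in libraries labelled MYB and by 0.31 (SE 0.07, adjusted p = 0.00244) in libraries labelled NMYB. EPB41L4A-AS1, the host of SNORA13, had 21.4 to 23.7 CPM in the libraries labelled MYB and 22.0 to 25.9 CPM in the libraries labelled NMYB, against 15.5, 19.9 and 18.8 CPM with empty vector. It rose by 0.34 (SE 0.09, adjusted p = 0.0111) in libraries labelled MYB and by 0.40 (SE 0.09, adjusted p = 0.00314) in libraries labelled NMYB. Without empty-vector library 1, the lowest, the first of these calls was lost (adjusted p = 0.0584).

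**Figure D3:**
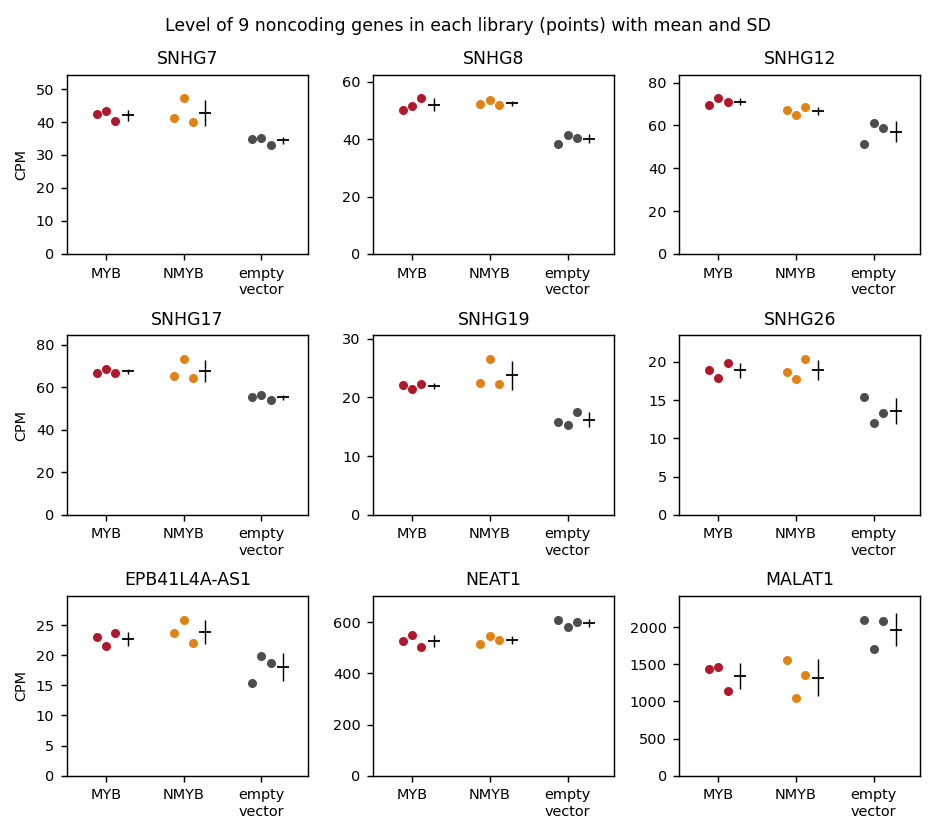
CPM of 9 genes in each library (points) of the MYB, NMYB and empty-vector groups, with the mean and SD beside each group (n = 3). The first 7 genes lie higher in the groups labelled MYB and NMYB than with empty vector, NEAT1 lies lower, and MALAT1 lies lower with a wide spread.

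Other hosts passed the test in 1 of the comparisons only. ZFAS1, an antisense host of box C/D snoRNAs, had 41.5 to 45.7 CPM in the libraries labelled MYB, against 35.4 to 38.8 CPM with empty vector, and rose by 0.27 (SE 0.07, adjusted p = 0.00764). In NMYB libraries its log2 fold change was 0.05 (adjusted p = 0.633). SNHG15 fell to 63.7, 69.3 and 65.5 CPM in the libraries labelled MYB, against 81.6, 77.1 and 76.5 CPM with empty vector (log2 fold change -0.24, SE 0.06, adjusted p = 0.00424). It was the host with the opposite direction, and in libraries labelled NMYB its log2 fold change was -0.15 (adjusted p = 0.0712). A call in 1 comparison and not in the other does not show that the groups differ, and for neither gene did the direct test between NMYB and MYB pass (adjusted p = 0.112 and 0.376).

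In NMYB libraries DANCR, SNHG6, SNHG10 and SNHG9 also rose. DANCR, the host of SNORA26, had 176.9, 177.8 and 180.4 CPM in libraries labelled NMYB, against 155.3, 163.7 and 157.7 CPM with empty vector (log2 fold change 0.17, SE 0.04, adjusted p = 0.00796). Without empty-vector library 3 the DANCR call was lost (adjusted p = 0.0519). SNHG6 rose by 0.17 (SE 0.05, adjusted p = 0.017) and SNHG10 by 0.42 (SE 0.13, adjusted p = 0.022), and each call was lost without any of 3 libraries, among them empty-vector libraries 1 and 3. For SNHG10 the groups overlapped, at 9.04 to 11.98 CPM in libraries labelled NMYB, against 6.61 to 9.57 CPM with empty vector.

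SNHG9 had the largest log2 fold change that passed the test, and it rests on few reads. Its counts were 29, 20 and 24 in libraries labelled NMYB, against 10, 12 and 8 with empty vector, and the libraries labelled MYB had 18, 17 and 17. For SNHG9 this gave a log2 fold change of 1.26 (SE 0.28, adjusted p = 0.00288) in libraries labelled NMYB, a fold of 2.40 with a 95% interval of 1.59 to 3.60. In MYB libraries it was 0.54 (SE 0.30, adjusted p = 0.228).

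The most abundant hosts did not pass the test in either comparison. SNHG1 had 350, 356 and 373 CPM in libraries labelled MYB and 349, 294 and 359 CPM in libraries labelled NMYB, against 376, 357 and 359.8 CPM with empty vector, with log2 fold changes of -0.02 (SE 0.06, adjusted p = 0.853) and -0.12 (SE 0.06, adjusted p = 0.135). GAS5 had 357, 356 and 358 CPM in libraries labelled MYB and 389.5, 361 and 368 CPM in libraries labelled NMYB, against 371, 348 and 348 CPM with empty vector. Its log2 fold changes were 0.01 (SE 0.04) and 0.07 (SE 0.04), with 95% intervals of the fold of 0.944 to 1.07 and 0.986 to 1.11. SNHG3 had 448 to 481 CPM in libraries labelled MYB and 448 to 488 CPM in libraries labelled NMYB, against 465 to 508 CPM with empty vector, and was not called. SNHG4, SNHG5, SNHG11, SNHG16, SNHG20 and SNHG21 passed in neither comparison, with log2 fold changes between -0.11 and 0.25. SNHG14, at its few counts, had 0.70 (SE 0.53) in libraries labelled MYB and 0.42 (SE 0.57) in libraries labelled NMYB.

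MALAT1 had the lowest log2 fold change of the 32 genes in both comparisons, with a wide spread between libraries. It had 1430, 1463 and 1147 CPM in libraries labelled MYB and 1552, 1052 and 1350 CPM in libraries labelled NMYB, against 2101, 1711 and 2084 CPM with empty vector. All 6 libraries labelled MYB or NMYB were below all 3 empty-vector libraries. The log2 fold changes were -0.55 (SE 0.17) in libraries labelled MYB, a fold of 0.685 with a 95% interval of 0.513 to 0.915, and -0.58 (SE 0.17) in libraries labelled NMYB, a fold of 0.671. Neither passed (adjusted p = 0.0713 and 0.0563), while DESeq2 called both (adjusted p = 0.0139 and 0.00657). Over all alternatives the adjusted p lay between 0.0139 and 0.194 in libraries labelled MYB and between 0.00657 and 0.159 in libraries labelled NMYB.

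NEAT1 fell to 526, 552 and 502 CPM in the libraries labelled MYB and to 516, 546 and 529 CPM in the libraries labelled NMYB, against 609.9, 582 and 599.7 CPM with empty vector. The groups did not overlap, and the log2 fold changes were -0.18 (SE 0.04, adjusted p = 0.00406) and -0.17 (SE 0.04, adjusted p = 0.00589). NORAD rose to 488.5, 473.5 and 500.1 CPM in the libraries labelled MYB, against 429, 416.5 and 443.5 CPM with empty vector (log2 fold change 0.18, SE 0.04, adjusted p = 0.00329). In the libraries labelled NMYB NORAD had 448, 424 and 443 CPM and was not called (adjusted p = 0.652). PVT1, a long noncoding gene beside MYC, had 104 to 106.5 CPM in libraries labelled MYB, against 118 to 128 CPM with empty vector (log2 fold change -0.21, SE 0.05, adjusted p = 0.00523), a call lost without empty-vector library 1 (adjusted p = 0.0692). OIP5-AS1 fell to 107, 92.1 and 113 CPM in libraries labelled NMYB, against 119.8 to 123.3 CPM with empty vector (log2 fold change -0.22, SE 0.06, adjusted p = 0.0126). TUG1, CYTOR, MIR4435-2HG and MIR17HG, the host of the miR-17-92 cluster, had log2 fold changes between -0.17 and 0.08 in both comparisons and were not called.

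Set directly against each other, the libraries labelled NMYB and MYB gave 0 calls among the 32 genes by edgeR's quasi-likelihood test, against 1.14% of all genes called, 0.518% higher and 0.626% lower. At an unadjusted p below 0.05 there were 7 genes, and DESeq2 called 2 (TUG1 and NORAD). TUG1 had 174.5, 160 and 183 CPM in libraries labelled NMYB, against 194, 197 and 199 CPM in libraries labelled MYB (log2 fold change -0.19, SE 0.05, adjusted p = 0.0664). Without NMYB library 3 or without empty-vector library 1, TUG1 was called (adjusted p = 0.0339 and 0.049), and over all alternatives its adjusted p lay between 0.00661 and 0.229. NORAD was next, at -0.15 (SE 0.04, adjusted p = 0.067), and for both genes the libraries labelled NMYB were below the libraries labelled MYB.

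Proteins that act on these RNAs were followed as lists, to be read against the shares of all genes called, 9.62% higher and 12.7% lower in libraries labelled MYB and 12.6% higher and 12.4% lower in libraries labelled NMYB. Of 18 snoRNP proteins and assembly factors, 3 rose and 1 fell in libraries labelled MYB, and 5 rose and 0 fell in libraries labelled NMYB, with median log2 fold changes of 0.06 and 0.08. NOP10, a core protein of H/ACA particles, rose by 0.26 (adjusted p = 0.000374) in libraries labelled MYB and by 0.45 (adjusted p = 1.19e-06) in libraries labelled NMYB. GAR1, another core protein of H/ACA particles, rose by 0.32 and 0.28, and ZNHIT6, an assembly factor of box C/D particles, by 0.28 and 0.21. PIH1D1, a subunit of the R2TP assembly complex, fell by 0.29 in libraries labelled MYB.

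Of 36 protein-coding snoRNA hosts, 7 rose and 6 fell in libraries labelled MYB and 8 rose and 2 fell in libraries labelled NMYB. The ribosomal protein gene RPL3 fell by 0.32 and 0.14 in the 2 comparisons. PPAN, a ribosome assembly factor, rose by 0.53 and 0.40, and HSPA8, a constitutive chaperone, by 0.23 and 0.15. The list's median log2 fold change was -0.02 and 0.06, against 0.01 over all genes in both comparisons.

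Of 21 factors of nonsense-mediated decay, which limits the spliced RNA of many hosts, 4 rose and 1 fell in libraries labelled MYB and 3 rose and 3 fell in libraries labelled NMYB. NBAS fell by 0.26 and 0.35, and the exon junction protein EIF4A3 rose by 0.19 and 0.30. Of 13 paraspeckle proteins, 3 rose and 0 fell in libraries labelled MYB and 4 rose and 0 fell in libraries labelled NMYB, with median log2 fold changes of -0.01 and 0.03, near the 0.01 of all genes. SFPQ rose by 0.18 in both, and RBM14 by 0.24 and 0.20. Of 9 speckle proteins and MALAT1 processing factors, 1 rose in libraries labelled MYB, and 2 rose and 4 fell in libraries labelled NMYB. SRSF2, a splicing factor of speckles, rose by 0.31 and 0.29, and SON, a speckle scaffold, fell by 0.13 in libraries labelled NMYB.

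Among 11 tested protein-coding genes beside the noncoding genes, SLC3A2, the amino acid transporter chain that lies head to head with SNHG1, rose by 0.44 (SE 0.05, adjusted p = 2.42e-06) in libraries labelled MYB and by 0.49 (SE 0.05, adjusted p = 1.01e-06) in libraries labelled NMYB. SNHG1 did not, as given above. TRNAU1AP, which overlaps SNHG12 on the opposite strand, fell by 0.17 in libraries labelled MYB while SNHG12 rose. In NMYB libraries RPS2, the neighbour of SNHG9, rose by 0.45, GLRX5, which overlaps SNHG10, rose by 0.22, and ZBTB37, which overlaps GAS5, fell by 0.22.

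The snoRNAs themselves were nearly uncounted. GENCODE 29 places 136 snoRNA and scaRNA genes within 25 of the 35 genes, 84 of them in SNHG14. For GAS5, grouped here with the hosts, 0 were found, so the count may be incomplete. All 136 are listed in the gene table, and 10 had any count in the 9 libraries. They held 3670 counts together, against 321348 counts on their hosts, and 2178 of the 3670 were within SNHG3. The levels above are those of the host RNA, and snoRNA levels were not compared.

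In the 34kn experiment, control libraries 1 and 2 differed most within their group, at a chi-square of 45.8 per degree of freedom, against 4.85 to 5.79 among the 34kn libraries. Several noncoding genes, among them SNHG8, SNHG15 and NEAT1, had their highest control level in control library 1. SNHG8 had 93.1 CPM in control library 1, against 74.0 and 64.2 CPM in control libraries 2 and 3. The mitochondrial share was 3.39% to 3.56% in 34kn libraries, against 2.41% to 3.24% in controls, and its part in the results was not tested. In the 34kp experiment, reads of low alignment quality made up 4.46% to 4.64% of counted items in 34kp libraries, against 7.14% to 8.35% in controls, and the part of this difference was not tested. There 34kp libraries 1 and 3 differed most, at 51.7 on the same measure.

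In 34kn libraries none of the 33 names tested passed edgeR's quasi-likelihood test, with 9 at an unadjusted p below 0.05 and 1 called by DESeq2 (NEAT1, adjusted p = 0.0326). Over all 16116 names the share called was 0%, with 3759 at an unadjusted p below 0.05. NEAT1 had 305, 304 and 296 CPM in 34kn libraries, against 460.5, 326 and 347 CPM in controls (log2 fold change -0.33, SE 0.11, adjusted p = 0.105). All 34kn libraries were below all controls, and without control library 1 the log2 fold change was -0.16. Over all alternatives NEAT1's adjusted p lay between 0.000342 and 0.322. SNHG15 had 41.3, 41.4 and 41.4 CPM in 34kn libraries, against 52.3, 46.2 and 46.8 CPM in controls (-0.23, SE 0.08, adjusted p = 0.119). Without control library 2, 2982 genes were called over all names and 6 of these 33: SNHG7, SNHG15 and NEAT1 lower, and TUG1 and the joined names of SNHG4 and OIP5-AS1 higher. Without control library 1, 447 genes were called and 0 of these 33.

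In 34kp libraries 2 of the 33 names (6.06%) passed the test, both higher, against 2.35% of all 16662 names, 0.63% higher and 1.72% lower. Without names joined with another longer gene, 1 of 23 (4.35%) passed. SNHG15 had 63.3, 61.3 and 65.1 CPM in 34kp libraries, against 42.0, 47.4 and 47.5 CPM in controls. The groups did not overlap, giving a log2 fold change of 0.47 (SE 0.09, adjusted p = 0.0209), a fold of 1.38. The joined name of DANCR had 209, 205.5 and 211 CPM in 34kp libraries, against 155, 152 and 165 CPM in controls, with a log2 fold change of 0.40 (SE 0.07, adjusted p = 0.0141). SNHG15 was not called without control library 1, 2 or 3 or without 34kp library 2, and DANCR was not called without control library 1 or 2 or without 34kp library 2, with adjusted p up to 0.132 and 0.147 while the fold changes stayed between 0.38 and 0.50.

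Further names that include hosts were higher in every 34kp library than in every control without passing the test. Some of them are joined with longer genes, as SNHG5's is with SYNCRIP and SNX14. The values of such names are not those of the host alone. SNHG5's joined name had 784 to 854 CPM in 34kp libraries, against 651 to 704 CPM in controls (0.26, SE 0.06, adjusted p = 0.0606). SNHG7 had 39.4 to 49.0 CPM in 34kp libraries, against 33.7 to 35.0 CPM in controls (0.35, SE 0.10, adjusted p = 0.1). Groups did not overlap in 15 of the 33 names, 10 higher and 5 lower, against 23.8% of all names. Without names joined with another longer gene, they did not overlap in 8 of 23. MALAT1 had 263 to 319.5 CPM in 34kp libraries, against 253 to 278.5 CPM in controls, and GAS5 had 638.5 to 676.5 CPM, against 647 to 676 CPM, and neither was called. Over the 33 names the log2 fold changes ran between -0.43 and 0.20 in 34kn libraries and between -0.23 and 0.47 in 34kp libraries, with SNHG25 and SNHG10 lowest and SNHG4 and SNHG15 highest.

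**Figure D4:**
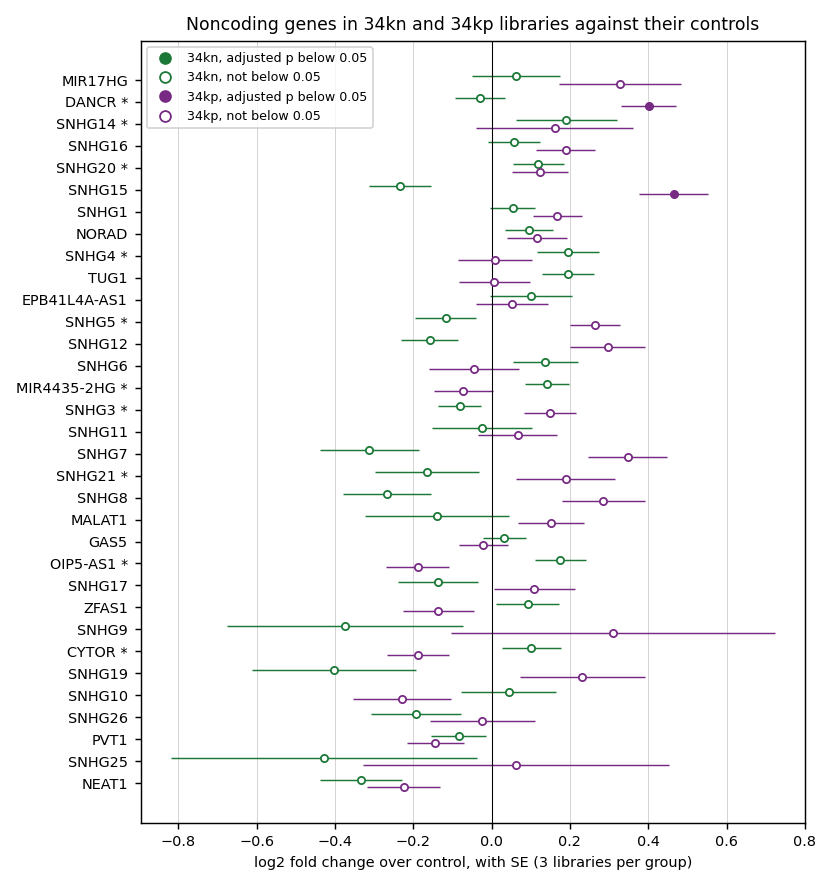
Log2 fold change over control with its SE for the 33 names tested, in 34kn (green) and 34kp (purple) libraries, ordered by the sum of both values. Filled points have an adjusted p below 0.05, which SNHG15 and DANCR reach in 34kp libraries, and an asterisk marks names joined with another longer gene.

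The difference between the 34kn effect and the 34kp effect was tested with an interaction term in a fit of all 12. It passed for 6 of the 33 names (18.2%), 5 lower and 1 higher, against 6.36% of all 17323 names, 3.53% lower and 2.83% higher. The 5 lower ones are named for hosts, but SNHG5 and DANCR are counted only in names joined with longer genes. Without names joined with another longer gene, 3 of 23 (13%) passed, 0 higher and 3 lower. SNHG15 had the smallest adjusted p, with a difference of -0.70 (SE 0.11, adjusted p = 0.0026), at -0.23 in 34kn libraries and 0.47 in 34kp libraries. It held without each of the 12 libraries in turn, with adjusted p up to 0.0112. DANCR's joined name differed by -0.43 (SE 0.09, adjusted p = 0.0126) and held likewise, with adjusted p up to 0.0488.

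SNHG7 differed by -0.66 (SE 0.17, adjusted p = 0.036), SNHG12 by -0.45 (SE 0.12, adjusted p = 0.0337) and SNHG5's joined name by -0.38 (SE 0.11, adjusted p = 0.0451). OIP5-AS1's joined name differed by 0.36 (SE 0.11, adjusted p = 0.0496). Each of these 4 calls was lost without any of 9 or 10 of the 12 libraries. Only SNHG7, SNHG12 and SNHG15 of the 6 are counted under a name free of other longer genes. With joined names included, the median difference was -0.20 over the 24 hosts tested and 0.06 over the 9 other noncoding RNAs, against 0.02 over all names. Among the lists, 3 of 17 snoRNP proteins and factors differed in the same direction, with NOP10 at -0.73 (adjusted p = 0.00659), as did 4 of 8 speckle proteins, with SRSF3 at -0.44 (adjusted p = 0.01) and SRSF2 at -0.39 (adjusted p = 0.0266), and 5 of 31 protein-coding hosts. Of 19 decay factors 1 was higher (NBAS) and 1 lower (DHX34), and of 11 paraspeckle proteins 1 was lower (HNRNPH3).

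The design text asks for exon usage, that is, whether a bin's share of its gene changes. In 34kn libraries 7 of 1131 tested bins of the noncoding genes (0.619%) passed edgeR's diffSpliceDGE, against 0.795% of all 216197 bins, and 4 of 32 names, against 7.24% of all names. Bin numbers follow the deposited files, which hold no coordinates, so the bins could not be placed in exons. All 7 bins had a lower share in 34kn libraries. TUG1 had 3 of them, the neighbouring bins 6, 7 and 8 of 60.

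TUG1 bin 7 had 25, 30 and 18 counts in 34kn libraries, against 137, 65 and 48 in controls. As a share of TUG1's bin counts this was 0.321%, 0.374% and 0.229% in 34kn libraries, against 2.12%, 0.864% and 0.726% in controls. Its log2 usage difference was -1.97 (adjusted p = 3.25e-07). Every control was above every 34kn library, and control library 1 was highest in all 3 bins.

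SNHG12 bin 32 made up 3.53%, 2.54% and 3.72% of SNHG12's bin counts in 34kn libraries, against 8.57%, 4.79% and 6.76% in controls (log2 usage difference -1.06, adjusted p = 0.000632). NEAT1 bin 5 had 45, 53 and 45 counts in 34kn libraries, against 449, 60 and 124 in controls, so that control library 1 held most of the difference (-1.81, adjusted p = 0.0044). Bins of the joined names of SNHG4 (bin 81, -0.81) and OIP5-AS1 (bin 10, -0.80) also had their highest share in control library 1, and for SNHG4 the groups overlapped. Without control library 1, 3 bins of the names in the set were called, and without control library 2, 58. A DEXSeq-type model in DESeq2 called 0 of them.

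In 34kp libraries 2 of 1145 tested bins passed (0.175%), against 0.00862% of all 220442 bins, in 2 of 31 names, against 0.0853% of all names. Both bins are in names joined with another longer gene, CYTOR with PLGLB2 and others and MIR4435-2HG with ANAPC1, and may lie in those genes. CYTOR and MIR4435-2HG are near-identical copies, so the 2 names may not be independent. CYTOR bin 42 had 60, 63 and 54 counts in 34kp libraries, against 175, 190 and 154 in controls. Its share of the joined name was 1.69%, 1.79% and 1.52% in 34kp libraries, against 4.22%, 4.63% and 3.69% in controls (log2 usage difference -1.33, adjusted p = 9.36e-05). Bin 125 of MIR4435-2HG's joined name had 47, 55 and 43 counts in 34kp libraries, against 112, 147 and 106 in controls (-1.22, adjusted p = 0.00589). The groups did not overlap for either bin. Without control library 2 neither passed.

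**Figure D5:**
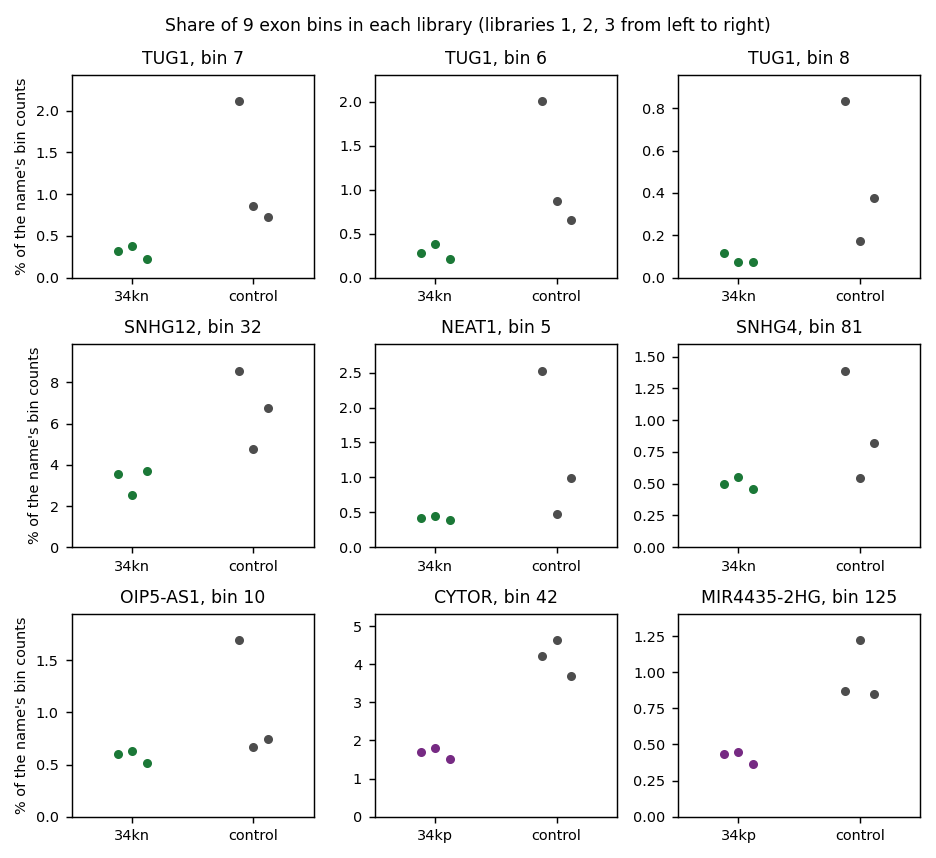
Share of each of the 9 called bins in its name's bin counts (%), per library, with 34kn or 34kp libraries left of their controls and libraries 1 to 3 from left to right. All 34kn or 34kp libraries lie below all controls except in SNHG4 bin 81. In the TUG1, SNHG12, NEAT1, SNHG4 and OIP5-AS1 bins control library 1 lies highest.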

How the data were processed

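Total RNA of K562 cells (1 µg, TRIzol) was sequenced with a TruSeq RNA kit, per the labels' protocols. Per the submitters' processing notes, Trimmomatic 0.93, STAR 2.7.10a, HISAT2 2.2.1 and featureCounts 2.0.1 were used with GRCh38, while the annotation release, strand setting and treatment of multiply mapped reads are not given in the sources used here. Raw counts were deposited by the authors, per gene for 9 libraries and per exon bin for 12, and no value was normalized. Bin counts were summed per name for tests of level, and reads outside bins (29.5% to 32.8%) were left out.

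Levels were tested with edgeR 4.0.16 (TMM, a filterByExpr minimum of 10 counts, quasi-likelihood F test, Benjamini-Hochberg adjustment over all genes, threshold 0.05) in R 4.3.3. The MYB experiment was fitted over 9 libraries, each eRNA experiment over 6 and their difference over 12. Bin usage was tested with diffSpliceDGE. Alternatives were DESeq2 1.42.0, upper-quartile scaling, no filter on low counts, a replicate block, other sets of libraries and leaving out each library, and for bins a minimum count of 30 and a DEXSeq-type model. Each test was tested on simulated data. CPM were computed with edgeR from TMM-scaled library sizes. Gene lengths come from GENCODE 29 and start sequences from RefSeq GRCh38.p14. Values per library are given for called genes, up to 8 per comparison by smallest adjusted p, and for the 6 highest per kilobase, and list examples are the smallest adjusted p. The genes and lists were chosen with earlier results of these data known. Some genes of these lists are not reported here.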

Additional observations from a re-analysis of the deposited data

Results flagged for a closer look

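The 34kn and 34kp effects on 6 genes differed by the edgeR interaction test over 12 libraries (log2, 34kn effect minus 34kp effect). SNHG15 differed by -0.70 and DANCR's joined name by -0.43, and both differences passed without each library in turn, while DANCR's did not pass with the replicate number as a block. SNHG7 differed by -0.66, SNHG12 by -0.45 and SNHG5's joined name by -0.38. OIP5-AS1's joined name differed by 0.36, with an adjusted p of 0.0496.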

How the results depend on the processing

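No result changed direction with a call on both sides. Counts of calls are given as over all genes, then over the noncoding genes. For NMYB against MYB, 181 and 0 became 399 and 2 with DESeq2, 656 and 4 with no filter on low counts and 1184 and 5 with the replicate block, and 60 genes were called with only the 6 libraries of those groups. For 34kn, 0 and 0 became 1289 and 1 with DESeq2 and 1572 and 4 with no filter. For 34kp, 392 and 2 became 976 and 4 with DESeq2, 997 and 4 with no filter and 71 and 0 with the block, and 817 genes were called with all 12 libraries in one fit. For the difference of the eRNA effects, 1102 and 6 became 105 and 1 with the block (SNHG15 remained and DANCR was lost), and 2056 genes were called with DESeq2 and 2085 with no filter. For NMYB against empty vector, 13 noncoding genes (11 higher, 2 lower) became 18 (12 higher, 6 lower) with the block. The causes were not tested.

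For usage in 34kn libraries, 7 bins in 4 names became 0 bins in 0 names under the DEXSeq-type model. For usage in 34kp libraries, 2 bins in 2 names became 1 bin in 1 name with the block, and the DEXSeq-type model called 1 name. Leaving out 1 library gave 2491 to 4629 genes and 10 to 14 noncoding genes for MYB, 2711 to 3900 and 10 to 15 for NMYB, and 0 to 323 and 0 to 1 for NMYB against MYB. It gave 0 to 2982 and 0 to 6 for 34kn, 46 to 1175 and 0 to 5 for 34kp, and 380 to 2747 and 2 to 9 for the difference. Called bins ranged from 3 to 58 in 1 to 12 names for 34kn and from 0 to 4 in 0 to 2 names for 34kp. The main fits did not pair samples by replicate number. Correlations of same-numbered libraries ran from -0.497 to 0.00551 in the eRNA experiments and from -0.0739 to 0.354 in the MYB experiment. For the MYB experiment these values do not settle whether the numbers pair samples. There the replicate block raised the genes called for MYB against empty vector from 3529 to 4342. With 3 libraries a group, calls of small changes depended on single libraries, and SNHG9, SNHG14, SNHG18, SNHG22 and SNHG25 had too few counts for small changes to be detectable.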
